A study of Mus musculus with 52 samples.

Results

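Genes with separated alternative promoters are genes whose symbol stands on several RNA polymerase II (Pol II) windows that do not overlap. Each window covers 600 bp around an annotated transcription start site (TSS) in the mouse genome (build mm9). A symbol was a member when at least 2 of its windows lay on 1 chromosome with starts 600 bp or more apart. The rule found 1854 of the 24194 symbols in the deposited Pol II table, with 4581 of its 27815 windows. Of the 1855 sets of windows (1 symbol had such a set on each of 2 chromosomes), 1301 held 2 windows, 393 held 3 and 161 held 4 or more. Lrrc49, at 600 bp, was the member just inside the limit, and Dnase1l1, at 597 bp, was the symbol just outside it. A further 797 symbols had several windows that all lay closer together than that. In each gene the main window is the one with the highest mean Pol II density over all 31 Pol II libraries, and the second window is the next highest one at least 600 bp from it.

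An alternative promoter lets 1 gene start its transcripts at different first exons, and these can differ in their 5′ leader, their first codons or their control. In neurons, separate promoters of 1 gene can answer differently to activity, because the factors that activity switches on bind near some start sites and not others. Pol II ChIP-seq reports where polymerase sits, and the density at a start site includes paused and initiating polymerase. Where one promoter lies downstream of another in the same direction, polymerase travelling from the upstream start site also passes through the downstream window, and the assay cannot tell apart these sources.

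The cells were primary cultured neurons of CD1 mice. The tested groups were stimulated for 1, 10, 30, 60, 180 or 360 min in U0126, which blocks the kinases MEK1 and MEK2, or for the same times in vehicle (DMSO). Unstimulated neurons in U0126 or vehicle, kept for 1 h or 6 h, served as controls. The labels do not name the stimulus. Each of the 16 Pol II groups had 2 libraries, except U0126 at 180 min with 1, and the labels do not say whether paired libraries were grown separately. Each p-value therefore rests on the variation among the libraries alone, which may be technical. All values below are densities in arbitrary units as normalized by the authors, and the depth behind them is unknown. Replicate 1 is given before replicate 2.

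For 3 genes whose second window rose in stimulated neurons, the promoters behind both windows are shown. They are RefSeq promoters (GRCm38.p6, 250 bases before to 50 after the start site, 5′ to 3′ on the gene's strand). Each was assigned to a window because the start sites have exactly the spacing of the windows in the deposited table. Capitals mark matches, on either strand, to the CRE core bound by CREB-type factors (TGACG), the full CRE (TGACGTCA), the AP-1 site (TGANTCA), the E-box (CACGTG), the TATA box (TATAAA) and the CArG box bound by SRF. The full CRE holds 2 overlapping cores, 1 on each strand. Slc25a22 lies on the minus strand of chromosome 7, with the second promoter at chr7:141434545-141434844, 3280 bp downstream of the main one at chr7:141437825-141438124.
Slc25a22 second promoter: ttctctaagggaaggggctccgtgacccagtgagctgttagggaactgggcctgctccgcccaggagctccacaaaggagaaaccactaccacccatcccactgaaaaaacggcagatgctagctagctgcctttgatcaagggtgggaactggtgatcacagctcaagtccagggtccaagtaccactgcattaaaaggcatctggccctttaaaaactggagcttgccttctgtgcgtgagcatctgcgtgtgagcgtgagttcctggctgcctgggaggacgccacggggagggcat
Slc25a22 main promoter: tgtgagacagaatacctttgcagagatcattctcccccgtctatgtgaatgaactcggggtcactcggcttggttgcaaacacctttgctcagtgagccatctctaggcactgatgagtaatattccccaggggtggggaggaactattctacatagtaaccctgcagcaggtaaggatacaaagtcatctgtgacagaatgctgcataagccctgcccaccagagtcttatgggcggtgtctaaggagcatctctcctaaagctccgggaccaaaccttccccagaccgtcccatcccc
Midn lies on the plus strand of chromosome 10, with the second promoter at chr10:80148022-80148321, 1410 bp upstream of the main one at chr10:80149432-80149731.
Midn second promoter: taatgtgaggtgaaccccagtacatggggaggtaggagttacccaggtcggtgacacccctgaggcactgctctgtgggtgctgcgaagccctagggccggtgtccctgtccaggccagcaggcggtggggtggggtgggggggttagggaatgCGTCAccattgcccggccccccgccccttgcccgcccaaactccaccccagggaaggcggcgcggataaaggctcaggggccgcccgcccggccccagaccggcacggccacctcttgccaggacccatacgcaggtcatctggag
Midn main promoter: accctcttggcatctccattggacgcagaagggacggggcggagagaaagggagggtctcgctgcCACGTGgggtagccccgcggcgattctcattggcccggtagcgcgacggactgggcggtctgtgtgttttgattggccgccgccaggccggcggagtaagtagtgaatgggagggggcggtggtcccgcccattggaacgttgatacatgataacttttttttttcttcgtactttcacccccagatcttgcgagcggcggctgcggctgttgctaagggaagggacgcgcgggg
Cbarp, the neighbour of Midn on the minus strand, has its second promoter at chr10:80137338-80137637, 1980 bp downstream of the main one at chr10:80139318-80139617.
Cbarp second promoter: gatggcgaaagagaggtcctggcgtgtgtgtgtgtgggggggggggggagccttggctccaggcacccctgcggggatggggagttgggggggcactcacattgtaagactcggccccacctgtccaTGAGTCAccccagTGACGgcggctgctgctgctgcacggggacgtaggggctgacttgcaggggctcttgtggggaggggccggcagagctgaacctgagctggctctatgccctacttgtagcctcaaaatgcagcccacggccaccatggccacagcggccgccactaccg
Cbarp main promoter: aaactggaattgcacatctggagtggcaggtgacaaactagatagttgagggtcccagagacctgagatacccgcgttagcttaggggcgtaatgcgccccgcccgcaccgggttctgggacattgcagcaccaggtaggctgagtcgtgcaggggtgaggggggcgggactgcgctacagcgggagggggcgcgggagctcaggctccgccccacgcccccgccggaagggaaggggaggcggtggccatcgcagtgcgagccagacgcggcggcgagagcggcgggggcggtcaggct
The second promoters of Midn and Cbarp each hold 1 CRE core, starting at position -96 in Midn and -110 in Cbarp from the start site, while their main promoters hold none. The second promoter of Cbarp also holds an AP-1 match at position -123, and the main promoter of Midn an E-box at position -185. Neither promoter of Slc25a22 holds any of these letters. Of all 32851 RefSeq mouse promoters in the table, 20.8% hold a CRE core, 1.79% the full CRE, 7.81% an AP-1 match, 7.15% an E-box, 13.6% a TATA match and 1.63% a CArG box. A match describes the letters and is not a binding site.

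Base composition differed between the windows of a gene. RefSeq start sites of the same spacing were found for 933 of the 1855 sets of windows. The comparison covers the 261 of these in which both windows passed the density filter given below and lay at most 500000 bp apart. The second promoter had the higher ratio of observed to expected CpG in 93 of the 261 pairs and the main promoter in 168. The median ratio was 0.620 for second promoters and 0.763 for main promoters, against 0.384 over all promoters in the table. A ratio above 0.6, a usual mark of a CpG island, was found in 52.5% of second promoters, 76.2% of main promoters and 35.8% of all promoters. The promoters of the whole table were not filtered by Pol II density, and the part of the filter in this contrast was not tested. Among the 144 pairs at least 2000 bp apart, the main promoter had the higher ratio in 97. CRE cores were found in 20.7% of second promoters and 35.2% of main promoters. This motif holds a CpG itself, and the part of CpG content in its frequency was not tested. AP-1 matches occurred in 6.13% of second promoters and 6.13% of main promoters. In Midn the CpG ratio was 0.486 for the second promoter and 1.02 for the main one, and in Cbarp 0.404 and 0.817. Both promoters of Slc25a22 were poor in CpG, with 0.337 for the second and 0.302 for the main one.

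**Figure D1:**
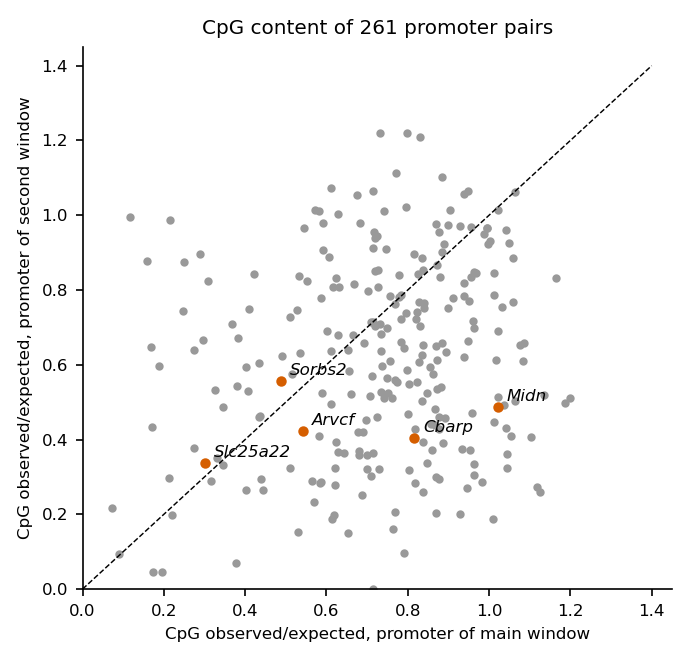
Ratio of observed to expected CpG in the RefSeq promoter of the second window (vertical axis) against that of the main window (horizontal axis) for 261 genes; each point is a gene, and the dashed line marks equal ratios. More points lie below the line, where the main promoter has the higher ratio (168 of 261), and Midn and Cbarp lie well below it.

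The distribution of Pol II over the windows at rest could be described only where both held enough of it. Both windows passed the filter on low density (mean over all libraries of at least 0.282, the upper 50% of all windows) in 554 genes, only the main window in 685, and neither in 616. In 75 of the 554, the log2 difference between the 2 windows had an SD under 0.1 over the libraries, and in 18 of these the SD was exactly 0, so these windows were taken as near-identical copies whose Pol II cannot be told apart. Leaving out these copies, predicted or small RNA entries and pairs over 500000 bp apart left 428 genes, on which the descriptions below rest. In unstimulated vehicle neurons the main window held a median of 63.8% and 64.2% of the Pol II density of the 2 windows in the 2 libraries. The middle 50% of genes ran between 54.5% and 71.9%. The share lay between 40% and 60% in 163 genes and above 90% in 7. Because the main window is by construction the higher one over all libraries, a share above 50% is partly fixed by the choice. In 20 genes, even so, the second window held more Pol II than the main one in both resting libraries.

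**Figure D2:**
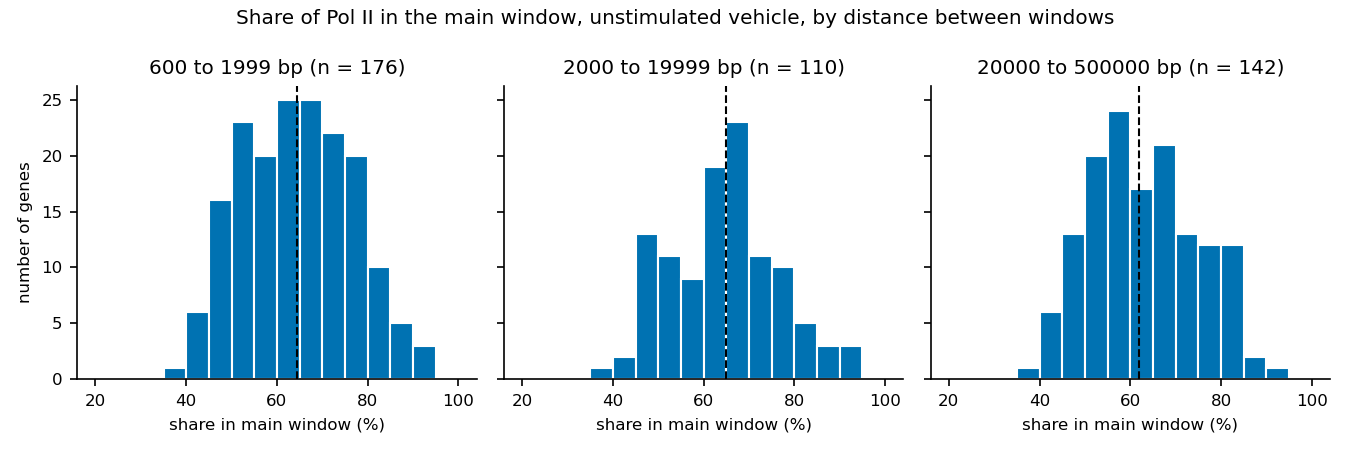
Share of the Pol II density of both windows that lay in the main window (horizontal axis, percent, mean of 2 unstimulated vehicle libraries) for 428 genes, split by the distance between the windows; bars count genes and dashed lines mark the medians. The medians are 64.5%, 64.9% and 61.8% from the closest to the farthest pairs.

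The median share, unlike that of single genes, lay in a narrow range whatever the distance and order of the windows. They were a median of 4350 bp apart, with the middle 50% between 952 and 35604 bp. The main window held a median of 64.5% in the 176 pairs under 2000 bp, 64.9% in the 110 pairs from 2000 to under 20000 bp, and 61.8% in the 142 pairs farther apart. RefSeq gave the strand for 359 genes, and the main window was the upstream one in 214 of them and the downstream one in 145. The main window held 65.3% where it was upstream and 63.1% where it was downstream (medians). A window of another symbol overlapped the second window in 42 of the 428 genes and the main window in 79, and Pol II there cannot be assigned to 1 gene.

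In the called genes the change passed the test at 1 window only: in 0 of the 428 genes were both windows called at any of the 3 times. At 30 min, 5 second windows and 9 main windows rose, and 1 second window and 2 main windows fell, against unstimulated neurons (limma, Benjamini-Hochberg adjusted p under 0.05 over 13908 windows). The second windows that rose were those of Rnf138, Midn, Cbarp, Slc25a22 and Per1, and the one that fell was that of Sorbs2. The main windows that rose included those of Nr4a2, Nr4a3, Maff, Eif5a, Gnas, Ing1, Myl6 and Rab13, and those that fell were Mtus1 and Runx1t1. The other window of the gene had the same sign of change in 13 of these 17 genes. At 10 min the main windows of Eif5a, Maff and Nr4a3 and the second window of Rnf138 rose, and at 60 min the main windows of Nr4a2, Nr4a3 and Maff. Counting every window of every member that passed the filter (2126 windows of 1240 genes, each overlapping window included), 10 were higher and 0 lower at 10 min, 24 higher and 12 lower at 30 min, and 5 higher and 0 lower at 60 min. Of all windows tested, 0.223% of windows were called higher and 0.00719% lower at 10 min, 1.34% and 0.209% at 30 min, and 0.165% and 0% at 60 min. Among member windows the shares called higher were 0.470%, 1.13% and 0.235% at the 3 times. The share called lower at 30 min was 0.564%. Beside the 3 windows named above, the lower ones lay in predicted genes, in a snoRNA cluster, and in Fam110a and Pitpnm2, whose second windows did not pass the filter.

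A window past the threshold beside one that is not does not show that the windows differ, so their difference was tested directly. It was taken as the change of the second window minus the change of the main window within each library. The centring of libraries on the log2 scale cancels in this difference. Scaling of the densities between libraries cancels only in part, because a fixed pseudocount is added before the log. The part that remains is largest where a window has low density. Over all 554 pairs, limma called 0 pairs (0%), at 10, 30 and 60 min and for the mean of the 3 times. At an unadjusted p under 0.05 there were 30 pairs (5.42%) at 10 min, 52 (9.39%) at 30 min, 40 (7.22%) at 60 min and 58 (10.5%) for the mean. The lowest adjusted p of any pair came to 0.155, 0.0542 and 0.218 at the 3 times and 0.0648 for the mean. This fit includes the 75 copies, whose difference could hardly move and which enter the spread that limma shares between pairs. The weight of that shared spread (prior degrees of freedom) was 0.778 here and 17.5 in the fit that follows. In a second fit without copies, unnamed entries and distant pairs, chosen after the data were seen, 4 of 428 pairs (0.935%) were called at 30 min and 1 (0.234%) for the mean of the 3 times. These were Nr4a2, Mtus1, Slc25a22 and Rab13 at 30 min and Arvcf for the mean. Copies were defined by the spread of the same differences that this fit tests, so its calls are not independent of that cut. In the 261 pairs with matching RefSeq start sites 2 (0.766%) were called at 30 min, Slc25a22 and Rab13, and 1 (0.383%) for the mean, Arvcf. Each of these 5 calls ends when some single library is left out, as given below gene by gene.

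Over the 428 genes the change of the second window had a lower median than that of the main one. The median difference in log2 change stood at -0.08 at 10 min, -0.14 at 30 min and -0.13 at 60 min. Its median size was 0.36, 0.39 and 0.39, against 0.27, 0.28 and 0.28 over all 554 pairs, copies included. Without stimulation, vehicle neurons kept for 6 h against those kept for 1 h had a median difference of -0.07 over the 428 genes. In vehicle it was 0.02 at 1 min, and -0.03 and -0.04 at 180 and 360 min against the 6 h libraries. The main window was chosen on all libraries, the stimulated ones included. The part of this choice in the direction was not tested. The main window's share of density at 30 min was 69.0% in replicate 1 and 64.3% in replicate 2, against 63.8% and 64.2% in the unstimulated libraries (medians). Replicate 1 at 30 min had 11.5% of all windows at 0, the most of all 31 libraries, and replicate 2 had 1.64%. The part of these zeros in the shift was not tested. Taken along the gene in the 359 genes of known strand, the downstream window minus the upstream window had medians of 0.01, -0.03 and -0.02 at the 3 times. It was positive in 181, 168 and 174 of them.

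**Figure D3:**
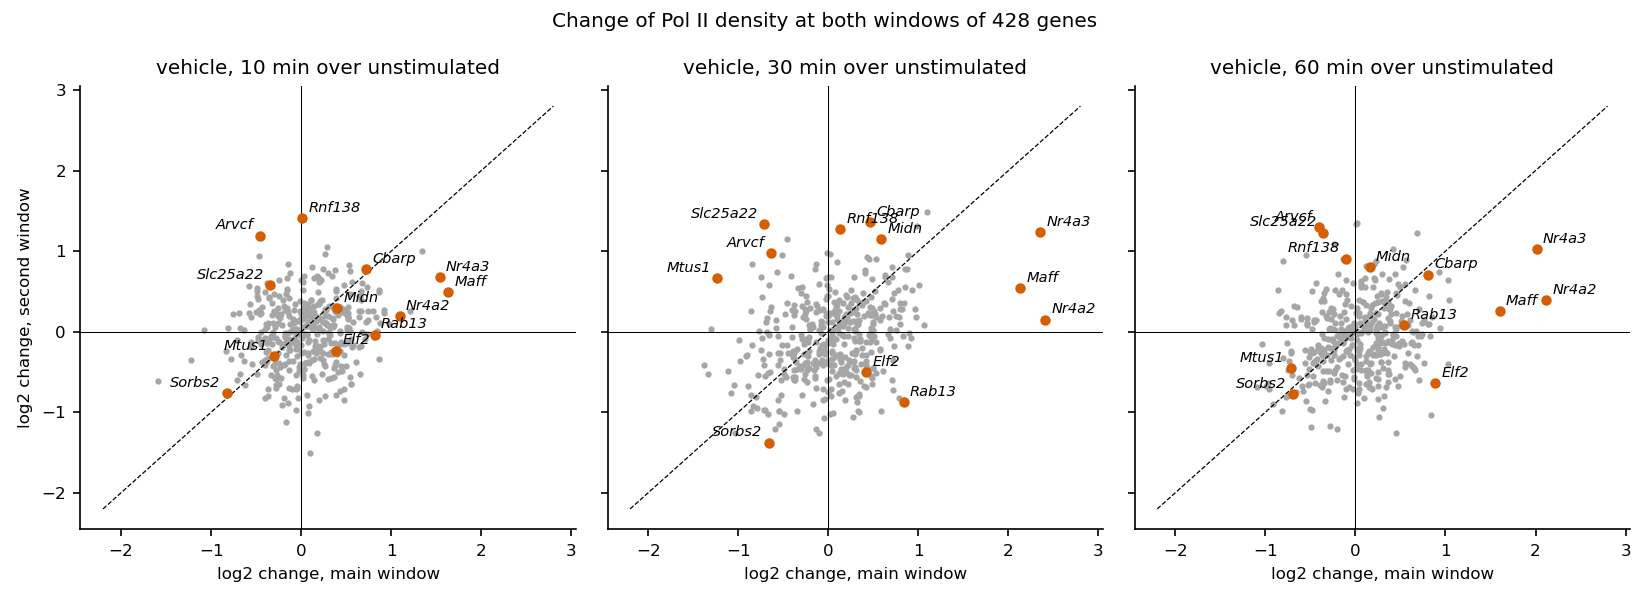
Log2 change of Pol II density at the second window (vertical axis) against that at the main window (horizontal axis) for 428 genes after 10, 30 and 60 min in vehicle over unstimulated vehicle; each point is a gene, and the dashed line marks equal change. Most points lie within 1 unit of 0, Nr4a2, Nr4a3 and Maff lie far to the right of the line, and Slc25a22, Arvcf and Rnf138 lie above it.

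Slc25a22, which encodes a mitochondrial glutamate carrier, showed the largest exchange between windows among 5 genes (Rnf138, Midn, Cbarp, Slc25a22 and Sorbs2) that were picked out with earlier results of these data known. Its second window (chr7:148620193-148620793, mm9) lies downstream of the main one (chr7:148623473-148624073). Densities at the second window were 0.272 and 0.488 in unstimulated vehicle neurons, 0.670 and 0.589 at 10 min, 1.27 and 1.06 at 30 min, and 1.15 and 1.00 at 60 min. The main window had 0.854 and 1.01 unstimulated, 0.867 and 0.571 at 10 min, 0.513 and 0.515 at 30 min, and 0.778 and 0.629 at 60 min. At 30 and 60 min both libraries had more Pol II at the second window than at the main one, the reverse of both resting libraries. The main window held 30.7% ± 2.7 of the density at 30 min, against 71.6% ± 6.0 at rest (SD, n = 2 each). At 30 min the second window rose by 1.34 on the log2 scale (SE 0.35, adjusted p = 0.0416), while the main window was at -0.71 (SE 0.32, adjusted p = 0.273). Between the windows the difference came to 0.92 at 10 min, 2.05 (95% interval 1.02 to 3.08) at 30 min, and 1.59 at 60 min. At 30 min its adjusted p was 0.0901 over all pairs and 0.0393 without copies. Without each library of the 30 min comparison in turn the fit without copies gave differences between 1.85 and 2.25 and adjusted p between 0.0705 and 0.417.

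In U0126, Slc25a22 had more Pol II at the second window than at the main one in both libraries at 10 and 30 min and, unlike in vehicle, in neither at 60 min. The second window had 0.344 and 0.499 unstimulated, 0.956 and 0.694 at 10 min, 1.26 and 0.940 at 30 min, and 0.531 and 0.774 at 60 min. Its main window had 1.21 and 0.922, then 0.662 and 0.683, 0.395 and 0.641, and 0.672 and 0.781 at the same times. The mean difference between windows over the 3 times was 1.44 (SE 0.40) in U0126 and 1.52 (SE 0.40) in vehicle. U0126 minus vehicle was -0.08, with a 95% interval of -1.27 to 1.10. At 6 h the unstimulated vehicle libraries had 0.787 and 0.576 at the second window, above both 1 h libraries.

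Rnf138 encodes a ubiquitin ligase that acts in DNA break repair. Its windows are the closest of the 5 pairs, with starts 657 bp apart on chromosome 18 (second chr18:21159500-21160100, main chr18:21160157-21160757). Pol II at one start site and its spread into the other window cannot be told apart at this distance. At the second window the density was 0.570 and 0.475 unstimulated, 2.12 and 1.25 at 10 min, 1.76 and 1.24 at 30 min, and 0.921 and 1.35 at 60 min. The main window had 0.964 and 1.39, then 1.04 and 1.33, 1.37 and 1.22, and 0.961 and 1.22. All libraries at 10, 30 and 60 min lay above both unstimulated ones at the second window, and the main window's groups overlapped. The second window rose by 1.41 at 10 min (SE 0.29, adjusted p = 0.0244) and by 1.27 at 30 min (SE 0.29, adjusted p = 0.0198). The main window was at 0.01 and 0.13. Between windows the difference was 1.39 (95% interval 0.63 to 2.16), 1.15 and 1.01 at 10, 30 and 60 min, with adjusted p of 0.155, 0.236 and 0.506. The window calls end without replicate 1 of the stimulated group or without either unstimulated library, with adjusted p up to 0.743 at 10 min.

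In U0126 the second window of Rnf138 had 0.917 and 1.13 unstimulated, 1.51 and 1.34 at 10 min, 1.11 and 1.68 at 30 min, and 1.16 and 1.07 at 60 min. Its unstimulated U0126 level was higher than the unstimulated vehicle level in both libraries. The 6 h unstimulated vehicle libraries stood between them, at 0.908 and 0.676. The mean difference between windows was 0.06 in U0126 and 1.18 in vehicle. U0126 minus vehicle was -1.12 (SE 0.42), which did not pass the test over all pairs (adjusted p = 0.979).

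Midn encodes midnolin, a protein that brings nuclear proteins to the proteasome. The second window (chr10:79610716-79611316) lies upstream of the main one (chr10:79612126-79612726). It had 1.52 and 1.52 unstimulated, 1.86 and 1.94 at 10 min, 3.98 and 3.20 at 30 min, and 2.98 and 2.62 at 60 min. At the main window it was 2.19 and 2.07, then 2.69 and 3.07, 3.06 and 3.55, and 2.27 and 2.57. At 30 min both libraries stood above both unstimulated ones at each window. The second window rose by 1.15 at 30 min (SE 0.22, adjusted p = 0.00379), and the main window was at 0.59 (SE 0.24, adjusted p = 0.227). The main window held 48.0% ± 6.4 of the density at 30 min, against 58.4% ± 0.9 at rest (SD, n = 2 each). The second window exceeded the main one in change by 0.56 at 30 min (95% interval -0.09 to 1.22) and 0.65 at 60 min (-0.01 to 1.30), with adjusted p of 0.607 and 0.686. Without replicate 1 at 30 min or replicate 1 of the unstimulated libraries the call at the second window ends, with adjusted p up to 0.273. In U0126 the second window had 2.28 and 1.77 at 30 min, against 1.65 and 1.57 unstimulated, a change of 0.29 (adjusted p = 0.705).

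Cbarp encodes a protein that dampens voltage-gated calcium channels. Its second window (chr10:79599832-79600432) lies downstream of the main one (chr10:79601812-79602412). Its densities were 0.412 and 0.255 unstimulated, 0.609 and 0.735 at 10 min, 1.39 and 0.824 at 30 min, and 0.609 and 0.663 at 60 min. Those of the main window were 0.740 and 1.12, then 3.23 and 0.770, 1.23 and 1.42, and 2.18 and 1.36. At 10 min replicate 1 of the main window lay far above both unstimulated libraries and replicate 2 between them. The second window rose by 1.36 at 30 min (SE 0.33, adjusted p = 0.0306). The main window was at 0.46 (SE 0.41, adjusted p = 0.649). At 30 min the windows differed in change by 0.90, with a 95% interval of -0.41 to 2.21, and at 10 min by 0.05, with -1.26 to 1.37. The call at the second window ends without replicate 1 at 30 min or without either unstimulated library, with adjusted p up to 0.623. In U0126 the second window had 0.618 and 0.573 at 30 min, against 0.428 and 0.376 unstimulated.

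Sorbs2, an adaptor that ties actin structures to signalling kinases, was the one of the 5 whose second window fell. The second window (chr8:46592841-46593441) lies 119963 bp upstream of the main one (chr8:46712804-46713404), and a further window of the gene did not pass the filter. It had 0.900 and 0.925 unstimulated, 0.540 and 0.429 at 10 min, 0.161 and 0.400 at 30 min, and 0.576 and 0.395 at 60 min. The main window had 1.19 and 0.792, then 0.474 and 0.505, 0.370 and 0.835, and 0.338 and 0.866. Each library at 10, 30 and 60 min lay below both unstimulated ones at the second window, while at the main window replicate 2 at 30 and 60 min lay above the lower of the unstimulated ones. The second window fell by 1.38 at 30 min (SE 0.34, adjusted p = 0.0351), and the main window was at -0.66 (SE 0.42, adjusted p = 0.467). Second minus main came to 0.06 at 10 min, -0.72 (95% interval -1.83 to 0.39) at 30 min, and -0.08 at 60 min. The call at the second window ends without replicate 1 at 30 min or without either unstimulated library, with adjusted p up to 0.662. In U0126 the second window had 0.308 and 0.602 at 30 min, against 0.564 and 0.539 unstimulated. The 6 h unstimulated vehicle libraries had 0.443 and 0.700, also below both 1 h libraries.

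**Figure D4:**
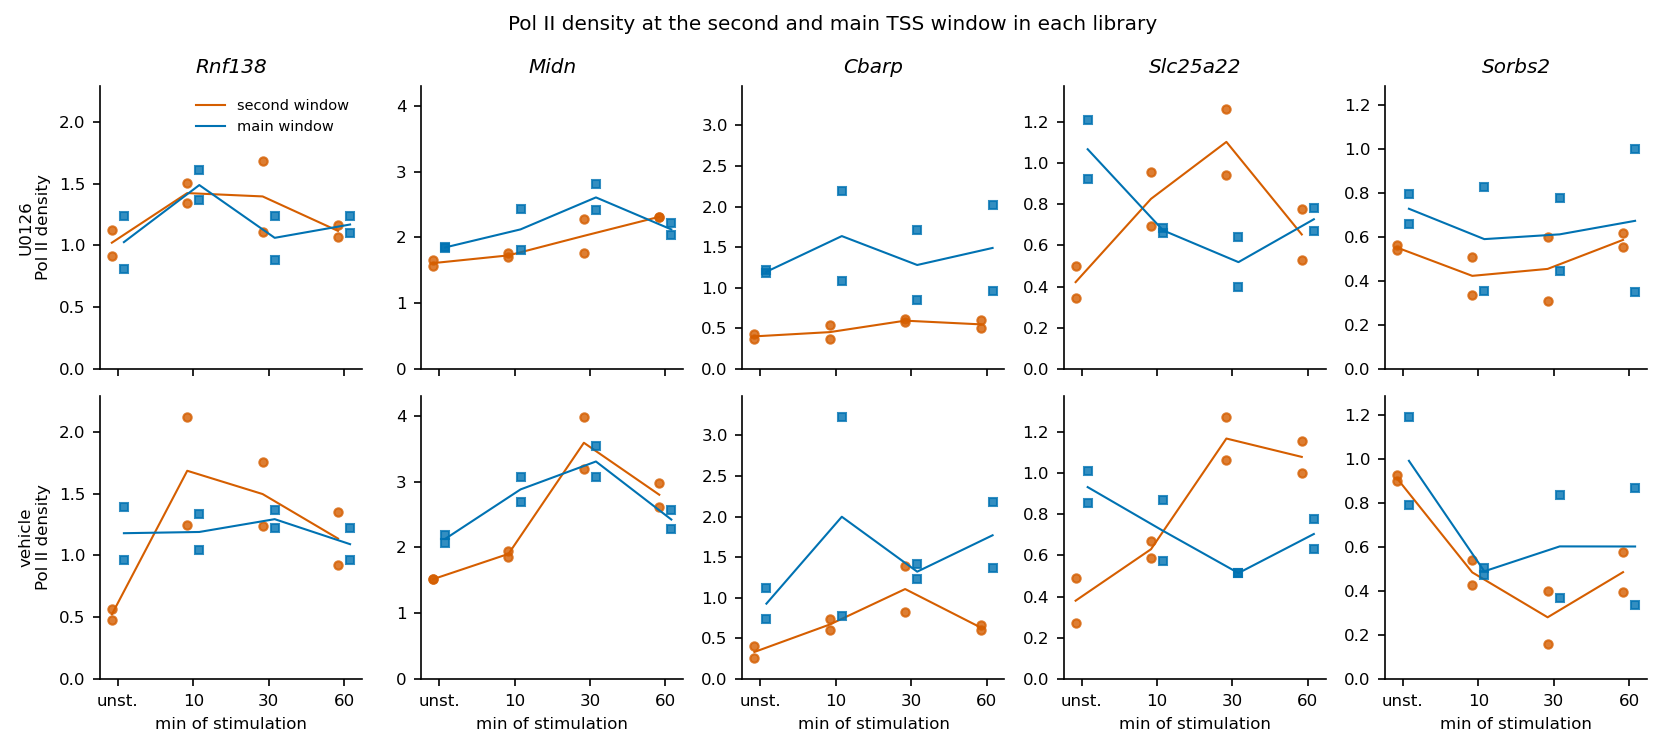
Pol II density (vertical axis, arbitrary units) at the second window (orange circles) and the main window (blue squares) of 5 genes in each library, by min of stimulation, in U0126 (top) and vehicle (bottom); unst. marks unstimulated 1 h libraries and lines join the means of 2 libraries. In vehicle the Slc25a22 lines cross between rest and 30 min, and the second window of Rnf138 lies above rest at all 3 times.

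Arvcf, a catenin of cell junctions, had a difference of similar size at 10, 30 and 60 min. Its second window (chr16:18392355-18392955) lies 44381 bp downstream of the main one (chr16:18347974-18348574). The second window had 0.146 and 0.359 unstimulated, 0.767 and 0.706 at 10 min, 0.505 and 0.733 at 30 min, and 1.24 and 0.512 at 60 min. The main window had 0.893 and 0.858, then 0.768 and 0.464, 0.623 and 0.424, and 0.647 and 0.622. The 6 libraries at these times lay above the 1 h unstimulated ones at the second window and below them at the main window. The 6 h unstimulated vehicle libraries had 0.425 and 0.397 at the second window, above both 1 h libraries and below the 6 stimulated ones. Second minus main was 1.65, 1.61 and 1.70 at 10, 30 and 60 min. Their mean of 1.65 (SE 0.34, 95% interval 0.93 to 2.38) had an adjusted p of 0.0648 over all pairs and 0.0450 without copies. The call without copies ends without replicate 2 at 10 min (adjusted p = 0.069), replicate 1 at 60 min (0.103) or replicate 1 of the unstimulated libraries (0.765). In U0126 the second window had 0.605 and 0.763 already in unstimulated neurons and 0.549 and 0.879 at 30 min. The mean difference was 0.31 in U0126, and U0126 minus vehicle was -1.34 (95% interval -2.37 to -0.32, adjusted p = 0.979).

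Nr4a2, an activity-induced nuclear receptor, moved at its main window, which the deposited table puts in its class dPRG (delayed primary response). The main window (chr2:56967149-56967749) lies 8965 bp downstream of the second one (chr2:56976114-56976714). Its second window had 0.154 and 0.318 unstimulated, 0.473 and 0.151 at 10 min, 0.246 and 0.296 at 30 min, and 0.480 and 0.244 at 60 min. The main window had 0.329 and 0.756, then 1.27 and 1.24, 4.44 and 2.50, and 2.76 and 2.69. At the main window all libraries at 10, 30 and 60 min lay above both unstimulated ones, and at the second window the groups overlapped. The main window rose by 2.41 at 30 min (SE 0.32, adjusted p = 1.85e-05) and by 2.12 at 60 min (adjusted p = 0.000371), and the call at 30 min held without each library in turn. The second window was at 0.15 (SE 0.41) at 30 min. The difference between windows at 30 min was -2.25 (95% interval -3.21 to -1.29), with an adjusted p of 0.0542 over all pairs and 0.0260 without copies. Leaving out replicate 1 at 30 min gave -1.77 and an adjusted p of 0.368 in the fit without copies, and leaving out unstimulated replicate 1 or 2 gave adjusted p of 0.336 or 0.0844. In U0126 the main window had 3.03 and 2.12 at 30 min, against 0.512 and 0.607 unstimulated.

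Mtus1, which encodes proteins that bind microtubules, moved the other way at its main window. Its second window (chr8:42126985-42127585) had 0.407 and 0.237 unstimulated, 0.189 and 0.271 at 10 min, 0.641 and 0.538 at 30 min, and 0.278 and 0.127 at 60 min. The main window, 12865 bp away (chr8:42139850-42140450), had 1.38 and 0.798, then 0.950 and 0.738, 0.398 and 0.339, and 0.467 and 0.747. Of these 4 groups, that at 30 min was the one in which the second window exceeded the main one in both libraries. The main window held 38.5% ± 0.2 of the density at 30 min, against 77.2% ± 0.1 at rest (SD, n = 2 each). The main window fell by 1.23 at 30 min (SE 0.30, adjusted p = 0.0318), and the second was at 0.67 (SE 0.39, adjusted p = 0.429). Second minus main was 1.90 (95% interval 1.06 to 2.74), with an adjusted p of 0.0542 over all pairs and 0.0393 without copies. Without copies the adjusted p lay between 0.0790 and 0.417 with each library left out in turn. In U0126 the difference at 30 min was 0.83 (SE 0.39).

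A further 4 genes were named because of low p-values at single times. Eif5a, a translation factor, has 6 windows within a short stretch, and only 1 of them counts as second. The second window had 1.31 and 1.55 at 10 min, against 1.20 and 1.13 unstimulated, while the main window had 3.25 and 2.45, against 1.04 and 1.22. The main window rose by 1.21 (adjusted p = 0.0337), and the difference between windows was -0.96 (SE 0.22, adjusted p = 0.155). Zfp710, a zinc finger gene, had 0.133 and 0.181 at its second window at 10 min, against 0.677 and 0.477 unstimulated, and 0.845 and 0.736 at its main window, against 0.599 and 0.761. The difference was -1.43 (SE 0.35, adjusted p = 0.155). Ppp2r5c, a regulatory subunit of protein phosphatase 2A, had 0.310 and 0.194 at its second window at 30 min, against 0.542 and 0.362, and 1.59 and 1.76 at its main window, against 0.962 and 0.966. The difference was -1.30 (SE 0.29, adjusted p = 0.0832), and over the 3 times it averaged -1.14 (adjusted p = 0.0648). Elf2, an ETS transcription factor whose 2 windows belong to the control class of the deposited table, had 0.391 and 0.515 at its second window at 60 min, against 0.729 and 0.813, and 1.44 and 1.10 at its main window, against 0.431 and 0.835. The difference was -1.52 (SE 0.39, adjusted p = 0.218).

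**Figure D5:**
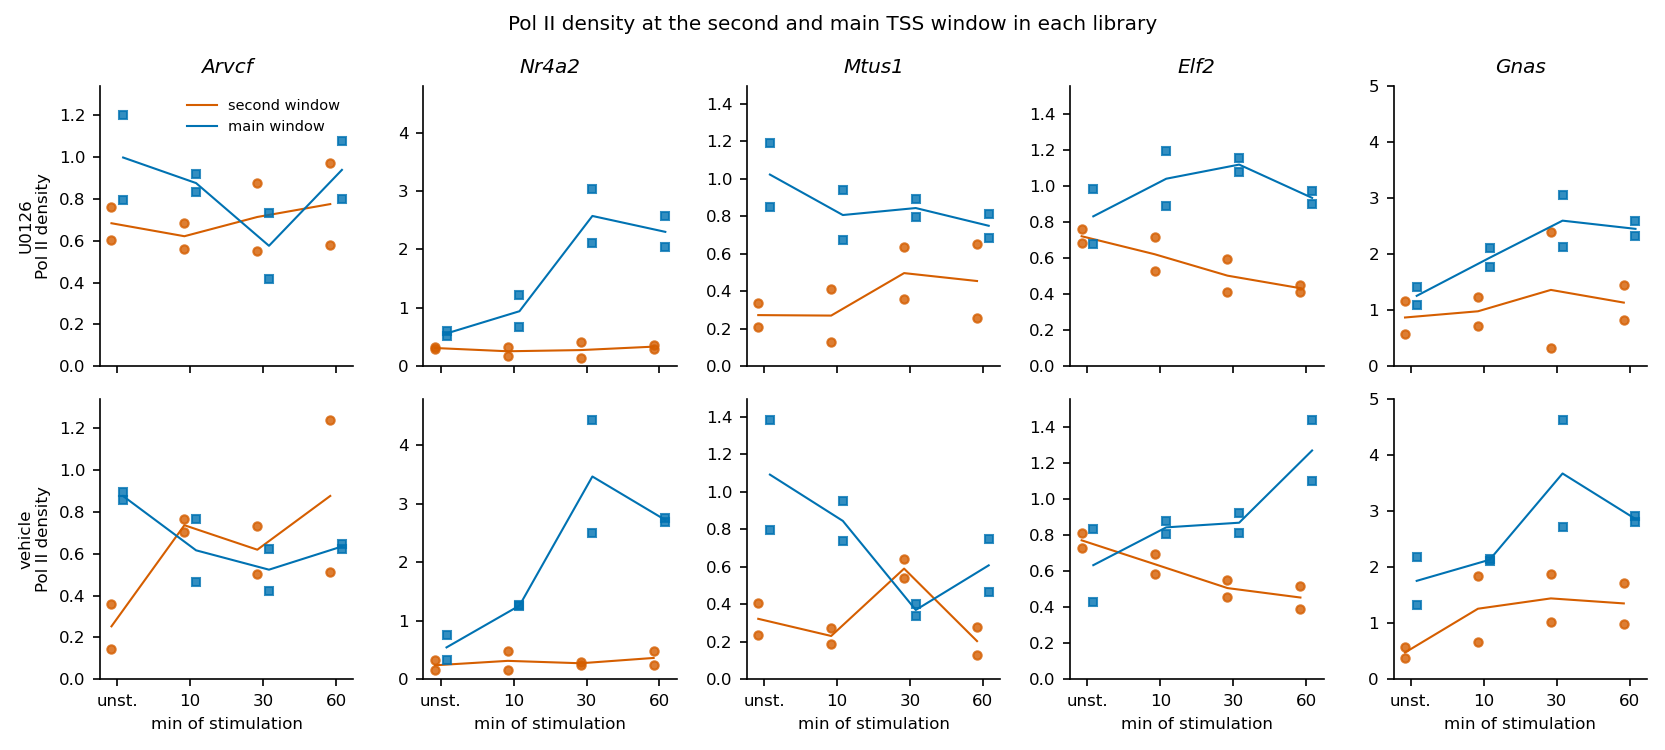
Pol II density (vertical axis, arbitrary units) at the second window (orange circles) and the main window (blue squares) of 5 further genes in each library, by min of stimulation, in U0126 (top) and vehicle (bottom); unst. marks unstimulated 1 h libraries and lines join the means of 2 libraries. The main window of Nr4a2 is high at 30 and 60 min in both arms, and the resting second window of Arvcf is low in vehicle alone.

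Activity genes with known internal or alternative promoters were a list of 24, of which 11 were members and 8 had both windows tested. None of the 8 differences passed the test at any time, and 0, 1 (Nr4a2) and 2 had an unadjusted p under 0.05 at 10, 30 and 60 min. Their median difference came to -0.58 at 10 min, -0.03 at 30 min and -0.43 at 60 min. The median was -0.01, -0.04 and -0.03 over all 554 pairs, copies included, and -0.08, -0.14 and -0.13 over the 428 genes. In the list the difference was positive in 2, 4 and 3 of the 8. Nr4a3, a nuclear receptor akin to Nr4a2, had 0.270 and 0.925 at the second window and 10.6 and 5.06 at the main window at 30 min, against 0.0895 and 0.193 and 1.07 and 1.60 unstimulated. Its main window rose by 2.35 (adjusted p = 1.46e-05), and with the second window at 1.24 (SE 0.50) the difference of -1.12 had a 95% interval of -2.89 to 0.65. Rcan1, an inhibitor of the phosphatase calcineurin, had 0.700 and 0.592 at its upstream second window at 30 min, against 0.549 and 0.546 unstimulated. Its downstream main window had 1.44 and 1.24, against 0.565 and 0.890. The difference was -0.60 (SE 0.51, adjusted p = 0.831). Per1, a circadian clock gene, was the member of the list whose second window rose at 30 min. It had 1.82 and 2.33 there, against 0.538 and 0.750 unstimulated, a change of 1.49 (adjusted p = 0.0423), a call that was lost without each of the 4 libraries in turn. Its main window had 1.59 and 2.02, against 0.491 and 1.13, and the difference between windows was 0.39 (SE 0.38).

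In synaptic adhesion and scaffold genes and in cytoskeletal genes no difference between windows passed the test. Of 24 synaptic genes 13 were members and 7 were tested, and all 7 differences were negative at 30 min, with a median of -0.57 and 1 unadjusted p under 0.05. Of 24 cytoskeletal and adaptor genes 13 were members and 6 were tested, all 6 negative, with a median of -0.54 and 0 unadjusted p under 0.05. At 60 min 0 differences of either list were positive, with medians of -0.39 in the synaptic and -0.36 in the cytoskeletal list, while at 10 min 3 were positive in each, with medians of -0.14 and -0.02. Over the 428 genes, too, most differences were negative at 30 min (positive in 69 of 176, 38 of 110 and 58 of 142 from the closest to the farthest pairs). The part of the choice of the main window in this direction was not tested. The second window of Nlgn1, a postsynaptic adhesion protein, had 0.10 and 0.410 at 30 min, against 0.598 and 0.742 unstimulated, and its main window 0.322 and 0.376, against 0.469 and 0.690. The difference was -0.60 (SE 0.49). Shank2, a postsynaptic scaffold, had 0.0646 and 0.627 at its second window at 30 min, and without replicate 1 its difference of -0.49 turned to 0.74. Grip1, which binds AMPA receptors, had a difference of -0.57 (SE 0.47). Ank2, a spectrin-binding ankyrin, had 0.976 and 0.760 at its second window at 30 min, against 1.53 and 1.28, and 1.97 and 2.04 at its main window, against 2.26 and 1.36. Its difference was -0.79 (SE 0.39, adjusted p = 0.563). Dst, a cytoskeletal linker, had -0.88 (SE 0.56), and its second window overlaps one of Bend6. Replicate 1 at 30 min was the library with the most windows at 0, and its part in these differences was not tested.

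Of 24 transcription factor genes 12 were members and 5 were tested, with 3 positive differences at 30 min, a median of 0.00 and 1 unadjusted p under 0.05. At 10 min 2 of the 5 were positive (median -0.06) and at 60 min 4 (median 0.14). Runx1t1, a transcriptional corepressor, had 0.207 and 0.200 at its main window at 30 min, against 0.802 and 0.628 unstimulated, a fall of 1.30 (adjusted p = 0.0367) that was lost without each of the 4 libraries in turn. Its second window had 0.257 and 0.282, against 0.238 and 0.277, and the difference was 1.34 (SE 0.47, adjusted p = 0.275). Bcl11a, a zinc finger repressor, had a difference of -0.30 (SE 0.35), and Tcf4, a basic helix-loop-helix factor, 0.27 (SE 0.47). Of 24 signalling genes 11 were members and 5 were tested, with 3 positive differences and a median of 0.03 at 30 min. At 10 and 60 min 4 of the 5 were positive, with medians of 0.49 and 0.28. Ntrk2, the BDNF receptor, had 0.995 and 1.80 at its upstream second window at 30 min, against 1.12 and 1.62, and 3.00 and 3.28 at its main window, against 1.74 and 1.51. Its main window stood at 0.89 (SE 0.24, adjusted p = 0.0537), and the difference was -0.90 (SE 0.39, adjusted p = 0.459). Gnas, which encodes the stimulatory G protein alpha subunit, had 1.87 and 1.01 at its second window at 30 min, against 0.569 and 0.380, and 4.63 and 2.71 at its main window, against 1.32 and 2.18. The main window rose by 0.99 (adjusted p = 0.0394), the second was at 1.31 (SE 0.54), and the difference was 0.32 (SE 0.65). Rap1gap, which switches off Rap1, had 0.61 (SE 0.46).

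Other members rose or fell at the main window. Maff, a small bZIP factor, had 0.256 and 0.691 at its second window at 30 min, against 0.312 and 0.196 unstimulated. Its main window, 882 bp upstream, had 2.93 and 2.68, against 0.513 and 0.536, a rise of 2.13 (adjusted p = 0.000386) that held without each library in turn. The difference was -1.59 (95% interval -2.76 to -0.41, adjusted p = 0.275). Homer1, a postsynaptic scaffold with a short activity-induced form, had 3.45 and 1.95 at its main window at 10 min, against 0.844 and 0.693 (1.58, adjusted p = 0.0401), and its second window did not pass the filter. Slc7a1, a cationic amino acid transporter, had 2.23 and 1.51 at 10 min, against 0.379 and 0.799 (1.48, adjusted p = 0.0215), likewise with an untested second window. Ing1, a chromatin reader, Myl6, a myosin light chain, and Fth1, the ferritin heavy chain, rose at their main windows at 30 min by 0.85, 0.87 and 0.90 (adjusted p of 0.0365, 0.0394 and 0.0365). With quantile normalization these changes came to 0.24, 0.43 and 0.26 and were not called. The second windows of Ing1 and Myl6 were at 0.56 and 0.78, without passing the test. Fam110a and Pitpnm2 fell at their main windows by 1.39 and 1.49 (adjusted p of 0.0365 and 0.0416). For Rab13, a membrane traffic GTPase taken up after its values were seen, the called difference at 30 min (-1.71, adjusted p = 0.0463 without copies) rests on a main window that overlaps windows of the ribosomal protein genes Rps27 and Rps27rt. The second window had 0.0407 and 0.328 at 30 min, against 0.459 and 0.337 unstimulated, and the main window had 4.37 and 3.69, against 1.97 and 2.38. Without replicate 1 at 30 min the Rab13 difference was -0.92 (adjusted p = 0.981). Of the 31 calls at main and second windows of named genes, 3 held without each library in turn, those of Nr4a2, Nr4a3 and Maff at 30 min. Quantile normalization ended all the other calls at 30 min, and it lowered the changes of Gnas to 0.56 and of Rab13 to 0.36.

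MEK inhibition gave no called difference between windows. In U0126 0 of 554 pairs were called for the mean of 10, 30 and 60 min, with 36 (6.5%) at an unadjusted p under 0.05. For U0126 minus vehicle 0 were called, with 20 (3.61%) at an unadjusted p under 0.05. Among the 428 genes the median difference between windows in U0126 was -0.05, against -0.12 in vehicle. Nr4a2 had the main window raised in U0126 as well, by 1.92 at 30 min (adjusted p = 0.00127) and 1.73 at 60 min (adjusted p = 0.0101). The share of all windows called higher in U0126 came to 0.0144%, 0.201% and 0.108% at 10, 30 and 60 min, and the share called lower at 30 min was 0.0288%. In vehicle at 1, 180 and 360 min 0 pairs were called, with lowest adjusted p of 0.829 at 1 min, 0.352 at 180 min and 0.491 at 360 min (limma) and 18, 31 and 23 pairs at an unadjusted p under 0.05.

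Acetylation of histone H3 at lysine 27 was measured at 940 enhancer regions, and in 930 of them both deposited tables name the same nearest gene. Of these, 91 regions were nearest to 27 of the members, and 7 of those genes were among the 428 genes described above. Of the 5 genes treated first above, 0 had a region. The region 2447 bp from Nr4a3 had 4.68 and 7.88 in U0126 at 30 min, against 3.50 and 2.95 unstimulated, and 5.68 and 6.04 in vehicle at 30 min, against 4.76 and 3.49. The region 815 bp from Per1 had 3.69 and 3.43 in vehicle at 30 min, against 2.13 and 1.96, and the one 1362 bp from Per1 had 3.37 and 5.33, against 2.57 and 3.51. In vehicle both libraries at 30 min lay above both unstimulated ones in the first 2 of these regions, and in the third the groups overlapped. These 3 regions are the ones nearest to a window among those of the genes named here. Others were lower at 30 min, such as one 37213 bp from Nr4a3 with 0.591 and 0.723 in vehicle, against 1.03 and 1.13 unstimulated, and one 54130 bp from Slc7a1 with 0.384 and 0.488, against 0.880 and 0.781.

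The labelled cell type was checked against markers: 8 of 10 neuronal marker genes passed the density filter, with Tubb3 highest at a mean of 5.15. Of the astrocyte markers 2 of 6 passed, of the oligodendrocyte lineage markers 3 of 6, and of the microglial and of the endothelial and fibroblast markers 0 of 6 each. The summed neuronal marker density ran between 9.51 and 14.8 over the libraries, that of astrocyte markers between 1.05 and 2.45, that of oligodendrocyte lineage markers between 2.02 and 4.00, that of microglial markers between 0.190 and 1.32, and that of endothelial and fibroblast markers between 0.410 and 1.61. Olig2, of the oligodendrocyte lineage, had a mean of 1.15, above the median of 0.900 over the neuronal markers. No marker was at 0 in all libraries. The summed density of all windows ran between 15568 and 18507, and 0.723% to 11.5% of windows were at 0 per library. Fewer cells of a type and less Pol II per cell cannot be told apart in such samples.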

How the data were processed

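Pol II signal per 600 bp TSS window was deposited by the authors as a density normalized with control TSSs, per the file headers, and H3K27ac signal was deposited by the authors per enhancer region, on a scale not stated. Bowtie2, SAMtools, bedtools and build mm9 come from the submitters' processing notes, without versions. The 5 input libraries were not analysed here. With no counts, depth is unknown.

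Densities were tested as log2(density + 0.146), the pseudocount being percentile 25 of all positive values, with limma 3.58.1 in R 4.3.3. The 13908 windows in the upper 50% by mean over 31 libraries (at least 0.282) entered 1 fit of 16 groups with a variance trend. Libraries were centred on their median over these windows, a choice made after seeing the data. Pair differences, log2 second minus log2 main within a library, were fitted the same way over 554 pairs. A call is a Benjamini-Hochberg adjusted p under 0.05 over all windows or all pairs, and every adjusted p printed is of this kind. Log2 changes understate those of low windows. The fit of pair differences was run on simulated pairs modelled on the pairs other than copies, with the 2 windows drawn independently. The fit of all 554 pairs with copies and the fit of windows were not tested in this way. Tables and figures used Python 3.11.15, pandas 2.3.3, numpy 2.4.6 and matplotlib 3.10.9.

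Members and gene lists were chosen with earlier results of these data known. Named genes are the 5 genes picked out with the question, per vehicle comparison the called pairs or, with fewer than 3 called, the 3 of lowest p, and per list the 3 of largest difference at 30 min. Genes named for a called window, and Rab13, were added after their values were seen. Symbols turned into dates in the deposited table (3) were not named. Alternatives were other pseudocounts, filters, centring, quantile normalization, a replicate block, fewer groups, other window pairs, each library left out and sets without copies. One called gene is counted but not reported here by name.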

Additional observations from a re-analysis of the deposited data

How the results depend on the processing

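Counts of calls moved strongly with the processing. Called windows numbered 32 at 10 min, 215 at 30 min and 23 at 60 min. At 10 min they fell to 5 with no filter, 5 with centring on all windows, 12 with quantile normalization and 21 with only the groups compared. At 30 min they were 88 with the upper 25% of windows, 21 with quantile normalization and 26 with only the groups compared, and at 60 min 101 with only the groups compared. Leaving out 1 library gave 4 to 19 windows at 10 min, 12 (without replicate 1 at 30 min) to 712 (without replicate 2) at 30 min, and 3 to 27 at 60 min. Called pairs, 0 in the fit of all pairs, became 2 at 30 min with the pseudocount at percentile 50, 1 with no filter and 1 with quantile normalization. They were 1 at 10 min with the upper 25% of windows and 1 at 60 min with quantile normalization. For the mean of the 3 times they were 1 with no filter and 2 with quantile normalization. Without copies 4 were called at 30 min and 1 for the mean, and with matching RefSeq start sites 2 and 1. With 1 library left out, 0 to 7 were called at 30 min and 0 to 4 for the mean. The median share in the main window at rest over all 554 pairs was 62.0% in the 6 h vehicle libraries and 60.9% in the U0126 libraries, against 60.3% in the 1 h vehicle libraries.

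Some pair differences turned round. Cbarp at 10 min was -0.062 with the pseudocount at percentile 50, Midn at 10 min 0.023 and Cbarp at 60 min 0.18 with quantile normalization, and Sorbs2 at 60 min 0.0074 with centred pair differences. Taking the first and last window of a gene gave 0.49 for Eif5a at 10 min and -0.90 for Mtus1 at 30 min. With 1 library left out, Cbarp ran between -0.998 and 1.10 at 10 min, -0.59 and 0.39 at 60 min, and -0.21 and 0.78 for the mean. Sorbs2 ran between -0.21 and 0.34 at 10 min, -0.82 and 0.66 at 60 min, and -0.52 and 0.028 for the mean. At 30 min Nr4a3 ran between -2.33 and 0.087, Shank2 between -1.72 and 0.74, Bcl11a between -0.73 and 0.12, Tcf4 between -0.40 and 0.94, and Gnas between -0.23 and 0.87. Causes were not tested.

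The replicate numbers are shared between groups, but same-numbered libraries deviated together only weakly. Across pairs the correlation of their deviations was 0.169, 0.0954 and 0.161 at 10, 30 and 60 min against the unstimulated libraries, so the number was taken as a name only. A replicate block called 2 pairs at 30 min, against 0 without it. It called 147, 753 and 163 windows at 10, 30 and 60 min, against 32, 215 and 23 without it. More windows passed with the block at each time, so the number carried part of the spread at the windows. The fits reported above leave that part in the error, and their window counts depend on this choice.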
